A study of Mus musculus with 16 samples.

Results

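The genes described here are the heat shock proteins and DnaJ chaperones, taken as every gene of the normalised count table whose symbol begins with Hspa, Hspb, Hspd, Hspe, Hsph, Hsp90, Dnaja, Dnajb or Dnajc, with symbols containing -ps left out. The rule took 58 of the 11831 genes in that table. The table holds genes with a mean above 100 counts in at least 1 of the 4 groups of libraries. A further 16 symbols of the rule lay below that limit, among them Hspb1 and Hspb8, which had 0 to 53 and 0 to 60 counts per library. The symbol nearest to the limit from below was Dnajb3, whose highest group mean was 83 counts, and no gene of the 58 lay within 20% above it. The prefix Hspb also took Hspb11, Hspbp1 and Hspbap1, which are not small heat shock proteins, so that Hspb6 was the 1 small heat shock protein among the 58.

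RNA was sequenced from MPP3 (Lin- Sca1+ Kit+, CD150- CD48+) and MPP4 cells (in addition Flt3+), multipotent progenitors with a myeloid and a lymphoid bias, sorted from the bone marrow of 8 C57BL/6 mice. Each mouse gave 1 library of each population, which makes 4 groups of 4 libraries. The 4 mice called WT are labelled Ebf1fl/fl Tie2Cre+/+, floxed at the gene of the B cell factor Ebf1 and without Cre, and the 4 mice called KO are labelled Ebf1fl/fl Tie2Cre +/cre. The description of the series gives the WT mice Tie2Cre and unfloxed Ebf1 instead, and the paper's methods name flox/flox or +/Cre littermates as controls of this strain. The sources thus differ on the alleles of the controls. An effect of the transgene cannot be told apart from one of Ebf1 if the controls lack it. Tie2Cre is active in endothelium and in blood stem cells and is not specific to MPPs. The females were WT1, WT2, KO3 and KO4, of 12, 11, 11 and 11 weeks. The males were WT3, WT4, KO1 and KO2, of 12, 11, 10 and 9 weeks. The labels name no batch or date of sorting.

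Libraries held 24823708 to 48703193 counts. In MPP3, Ebf1 itself had 5 to 91 counts where the label is WT and 6 to 84 where it is KO. In MPP4 it had 98 to 263 counts in the libraries labelled WT and 488 to 928 in those labelled KO, so the gene count went against the label there. Counts over a whole gene do not separate intact from recombined transcripts, so the directions between KO and WT below follow the labels alone. The progenitor markers Kit, Cd34, Cd48, Flt3 and Ly6a were present in every library (at least 749 counts each), and their summed level was 2663 to 3071 CPM (counts scaled to library size with TMM factors) in MPP3 and 3322 to 4116 CPM in MPP4. Of 5 T and NK cell markers, Cd3e, Cd3g, Klrd1 and Trbc2 had at most 3.67 CPM in any library, while Nkg7 had 223 to 637 CPM. Igkc, an immunoglobulin light chain of plasma and B cells, ranged from 0 to 380 CPM.

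Heat shock proteins are molecular chaperones that bind unfolded proteins and help them to fold, refold or be degraded. The Hsp70 proteins (Hspa genes) do this in cycles of ATP hydrolysis. DnaJ proteins (J proteins) bring them substrates and start hydrolysis, and Hsp110 proteins such as Hsph1 exchange the nucleotide. Hsp90 proteins (Hsp90aa1 and Hsp90ab1 in the cytosol, Hsp90b1 in the endoplasmic reticulum, ER) act on kinases, receptors and other clients at a later stage. A subset, with Hspa1a and Hspa1b as the best known members, is induced by heat shock factor 1 (Hsf1) when proteins unfold in the cytosol, and another subset, with Hspa5 (BiP) as its best known member, is induced when proteins unfold in the ER.

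Stretches of 6 promoters are given, of genes whose differences between animals are described below and whose promoter held an ER stress element or a pair of heat shock units. They are from RefSeq (GRCm38.p6, the build also called mm10), each upstream of a RefSeq start on the strand of the gene. Of the 58 genes, 47 had a promoter in the table. Gene coordinates given below are from GENCODE M21, whose starts can differ. It starts Hspa5 at 34771970 and Hsph1 at 149636376, so the marked letters of these genes lie inside the GENCODE genes. Capitals mark the ER stress element, which is CCAAT and CCACG with 9 bases between them (CGTGG and ATTGG on the other strand), in the first 3. In the others they mark a pair of heat shock units, GAANNTTC or TTCNNGAA. Both strands were searched.
Hspa5 (chr2:34771984-34772083, plus strand): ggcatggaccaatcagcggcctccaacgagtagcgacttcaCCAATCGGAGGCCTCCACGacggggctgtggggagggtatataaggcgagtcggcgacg
Hsp90b1 (chr10:86705515-86705674, minus strand): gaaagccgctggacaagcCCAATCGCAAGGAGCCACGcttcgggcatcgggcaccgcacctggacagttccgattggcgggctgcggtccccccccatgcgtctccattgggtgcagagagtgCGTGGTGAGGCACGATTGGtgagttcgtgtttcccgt
Dnajc3 (chr14:118937786-118937885, plus strand): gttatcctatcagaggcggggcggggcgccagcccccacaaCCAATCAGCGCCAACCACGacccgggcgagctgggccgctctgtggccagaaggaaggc
Hspa1a (chr17:34972207-34972306, minus strand): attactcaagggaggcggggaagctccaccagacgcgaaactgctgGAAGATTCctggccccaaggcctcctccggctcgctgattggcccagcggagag
Hsph1 (chr5:149636337-149636436, minus strand): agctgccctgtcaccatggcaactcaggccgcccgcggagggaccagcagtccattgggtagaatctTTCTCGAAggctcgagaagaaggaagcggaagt
The sixth stretch, that of Hspa1b (chr17:34959289-34959388, minus strand), has the same letters as that of Hspa1a, and the 250 bases upstream of both genes are identical at 247 positions.

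Within 250 bases upstream of a start, the ER stress element was found at 37 of 32851 promoters of the table (0.113%), which belong to 35 of 27025 genes (0.13%). Among the 47 chaperone genes it was found at 3, which are Hspa5, Hsp90b1 and Dnajc3. The pair of heat shock units was common, at 12.8% of all promoters and 14.5% of those genes, and occurred at 11 of the 47. A run of 3 units, GAA, TTC and GAA or TTC, GAA and TTC with 2 bases between neighbours, which contains the pair, was found at 0.466% of all promoters and 0.514% of those genes, among them Dnajb6, Hspd1 and Hspe1. Hspd1 and Hspe1 encode the mitochondrial Hsp60 and Hsp10, lie head to head on chromosome 1 and share this run. These matches describe letters only. The promoters of the other 11 members, among them Hspa8, Hspa9, Hspa13, Hsp90aa1 and Hsp90ab1, were not searched.

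The 2 most abundant genes per length were cytosolic, Hsp90ab1 and Hspa8. Levels between genes are compared as RPKM (CPM per kilobase of annotated exon). Hsp90ab1 had 1017 RPKM on average over the 16 libraries, Hspa8, the constitutive Hsp70 of the cytosol, 775 RPKM, and Hspd1 253 RPKM. Hspa5 followed with 245 RPKM, Hsp90aa1 with 200 RPKM and Dnajc9, a nuclear J protein that also binds histones, with 144 RPKM. At the other end, Dnajb5 had 0.844 RPKM, Hspbap1 0.946 RPKM and Dnajb14 0.965 RPKM. The inducible pair was above these lowest genes but far below Hsp90ab1 and Hspa8, with 12.0 RPKM for Hspa1a and 1.46 RPKM for Hspa1b. Both encode nearly the same protein, so reads can be shared between them and the split of their counts is uncertain. An annotated gene on the other strand also overlaps exons of Hspa1a.

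**Figure D1:**
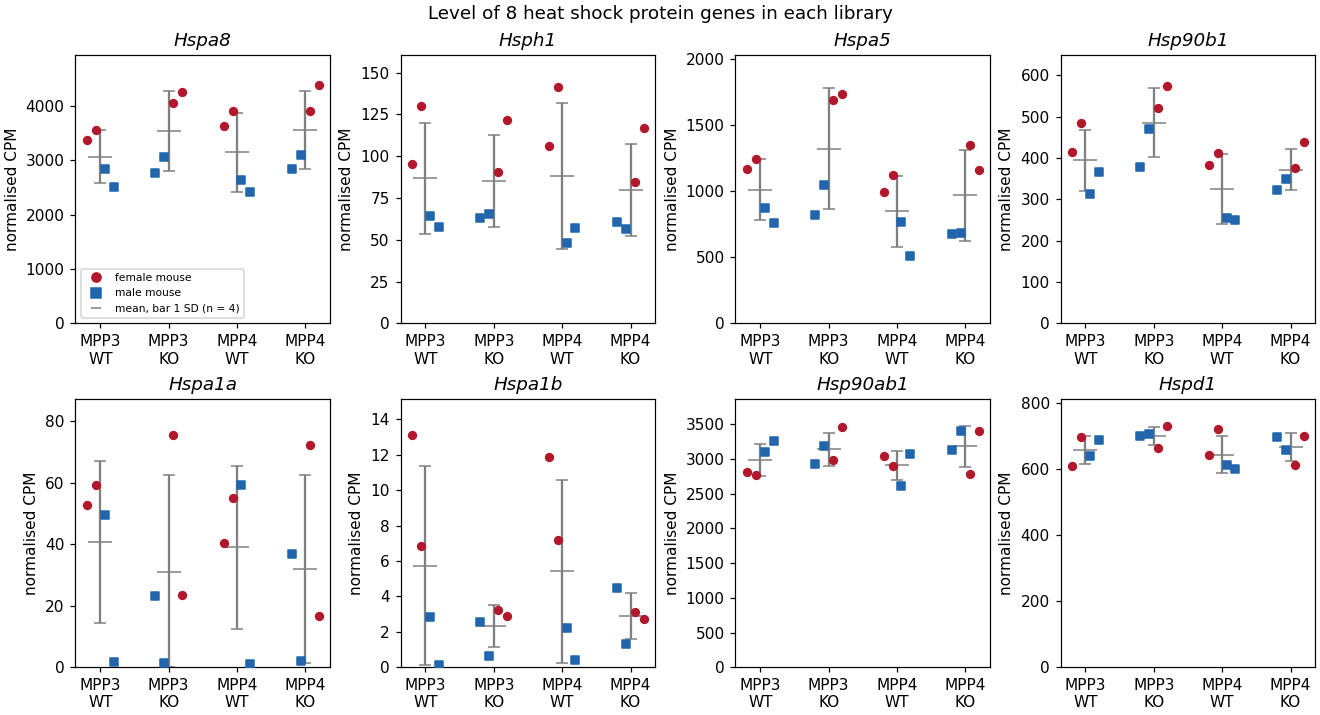
Normalised CPM (vertical axes, from 0) of 8 genes in each library, by group (horizontal axes). Circles are female and squares male mice, horizontal lines are means of 4 libraries and bars 1 SD (cut at 0). Female mice lay above male mice for Hspa8, Hsph1 and Hspa5 in every group, while mice WT4 and KO2 lay near 0 for Hspa1a.

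KO and WT were compared within each population to ask which chaperone genes change when Ebf1 is targeted. No member was called in MPP3, where 0.0676% of all genes were called (edgeR quasi-likelihood test, FDR under 0.1). The smallest FDR was 0.364, 2 members had an unadjusted p under 0.05 (10.5% of all genes did), and DESeq2 called 0 members as well (1.82% of all genes). The groups did not overlap for 2 of 58 genes, Dnajc5 and Dnajc6 (4.58% of all genes), both lower in the libraries labelled KO (2.41%). The median log2 fold change of the 58 was 0.01, against −0.01 over all genes. Fewer cells of a type and less RNA per cell cannot be told apart in these bulk libraries.

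Dnajc5 encodes cysteine string protein, a J protein of secretory vesicles. Its CPM in MPP3 was 112, 116, 97.9 and 103 in the libraries labelled WT and 95.2, 97.3, 91.4 and 97.8 in those labelled KO, a log2 fold change of −0.17 ± 0.06 (SE, FDR 0.364). The highest KO library lay just under the lowest WT library. Dnajb12, a J protein anchored in the ER membrane, had the next smallest p (−0.54 ± 0.23, FDR 0.438), with 13.9 ± 3.86 CPM (SD, n = 4) in WT and 9.52 ± 1.72 CPM in KO.

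In MPP4 no member was called either, where 0.0169% of all genes were called, and 6 of 58 had an unadjusted p under 0.05 (12.8% of all genes did). The groups did not overlap for 4 of 58 genes (7.27% of all genes), with lower values in KO for Dnajc6 and Dnajc14 and higher values for Dnajc21 (0.51 ± 0.20, FDR 0.282) and Dnajc25 (0.75 ± 0.32, FDR 0.321). Dnajc6 (auxilin, chromosome 4, 101496648 to 101642799), a J protein that with Hspa8 removes clathrin from vesicles, came closest to the threshold. Its CPM in MPP4 was 33.1, 38.2, 40.8 and 37.7 in the libraries labelled WT and 24.4, 26.9, 26.4 and 26.1 in those labelled KO. Every KO library was below every WT library, with a log2 fold change of −0.53 ± 0.09 (FDR 0.110). DESeq2 called it (FDR 0.000697), as its 1 member among 2.92% of all genes, as did edgeR with sex as a term (0.0495). With single libraries left out it was called without replicate 1 of MPP3 WT, of MPP3 KO or of MPP4 WT, and without replicate 3 or 4 of MPP4 KO, and the FDR ranged from 0.000697 to 0.338 over all alternatives. In MPP3 the difference of Dnajc6 was −0.20 ± 0.09 (FDR 0.479), from 40.3 ± 3.26 CPM in WT to 35.1 ± 2.74 CPM in KO.

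Hsp90aa1, the stress-responsive cytosolic Hsp90, had 762, 744, 594 and 615 CPM in MPP4 WT and 876, 833, 697 and 926 CPM in MPP4 KO. The ranges overlapped, and its log2 fold change was 0.30 ± 0.10 (FDR 0.238). Dnajc14, a J protein of the ER membrane whose exons overlap those of other genes, had −0.27 ± 0.10 (FDR 0.245), with 78.9 ± 2.12 CPM in WT and 65.2 ± 9.01 CPM in KO. KO replicate 1 was the lowest library, at 51.8 CPM, and the other 3 lay between 68.8 and 70.8 CPM.

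The interaction, which asks whether the KO effect differs between MPP3 and MPP4, called no member and 0% of all genes, with 2 of 58 members at an unadjusted p under 0.05 (2.28% of all genes) and 0 members called by DESeq2 (0.0678%). The members with the smallest p were Dnajc6 (0.33 ± 0.13 on the log2 scale, MPP3 effect minus MPP4 effect), Dnajc10 (0.25 ± 0.12) and Dnajc14 (0.28 ± 0.14), each with an FDR of 1. The inducible Hsp70 genes had the widest errors. In MPP3 the log2 fold change of Hspa1b was −1.29 ± 0.93 (FDR 0.689) and in MPP4 it was −0.90 ± 0.92 (FDR 0.714), and Hspa1a had −0.39 ± 1.12 and −0.29 ± 1.12 (FDR 0.946 and 0.941). Among the abundant genes, Hspa5 had group means between 847 and 1321 CPM, Hspa8 between 3073 and 3565 CPM and Hsp90aa1 between 679 and 843 CPM. Hsp90ab1 had group means between 2905 and 3179 CPM with SDs of 209 to 290 CPM, and Hspd1 had group means between 645 and 701 CPM with SDs of 28.2 to 55.3 CPM. Hspa4, an Hsp110-type exchange factor, had group means of 237 to 251 CPM, and Hspa9, the mitochondrial Hsp70, of 466 to 512 CPM. Of the 9 mitochondrial members, such as Hspd1, Hspe1 and Hspa9, 0 were called between KO and WT, where few of all genes were called (0.0676% in MPP3 and 0.0169% in MPP4). An unadjusted p under 0.05 was seen for 0 of the 9, and for 10.5% of all genes in MPP3 and 12.8% in MPP4.

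**Figure D2:**
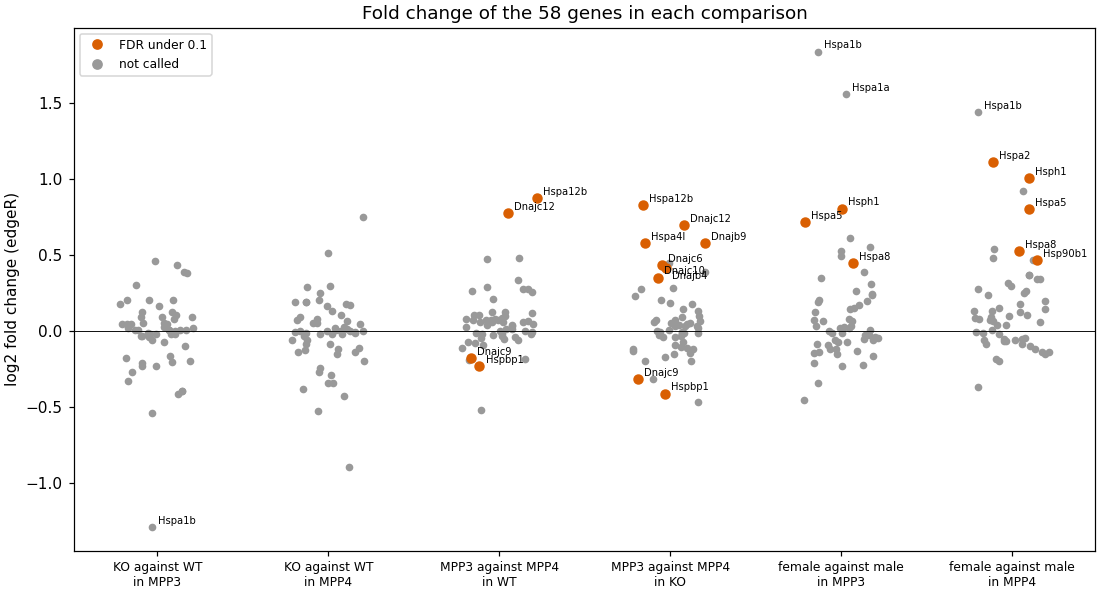
Log2 fold change (vertical axis, edgeR) of the 58 genes in 6 comparisons (horizontal axis). Each point is 1 gene, and orange points passed an FDR of 0.1. No gene passed in KO against WT, 4 and 9 passed between the populations, and 3 and 5 passed between the sexes, all of the last 8 calls higher in female mice.

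Between the populations within a genotype, more genes differed. MPP3 against MPP4 in WT mice gave 4 of 58 called members (6.90%, against 15.1% of all genes), 2 higher (6.8%) and 2 lower in MPP3 (8.33%). In KO mice 9 of 58 were called (15.5%, against 17.9% of all genes), 7 higher (8.71%) and 2 lower (9.18%), and all 4 called in WT were among them. Both libraries of a mouse share its number, sex and age, and with the mouse as a block 10 members were called in WT (24.8% of all genes) and 15 in KO (28.3%). The groups did not overlap for 5 members in WT (15.9% of all genes) and for 8 in KO (17.2%).

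The 2 lower members were the same in both genotypes. Dnajc9 (chromosome 14, 20384638 to 20388910) had 311, 308, 316 and 331 CPM in MPP3 WT and 379, 343, 333 and 379 CPM in MPP4 WT. All MPP4 libraries lay above all MPP3 libraries, with a log2 fold change of −0.18 ± 0.06 (FDR 0.0701). In KO mice it had 309 ± 10.5 CPM in MPP3 and 386 ± 25.6 CPM in MPP4 (−0.32 ± 0.06, FDR 0.00145). Hspbp1 (chromosome 7, 4660521 to 4685068), a cochaperone that releases nucleotide from Hsp70, had 170, 182, 168 and 189 CPM in MPP3 and 206, 215, 189 and 224 CPM in MPP4 of WT mice (−0.24 ± 0.08, FDR 0.0905). In KO mice it had 165 ± 11.4 and 220 ± 27.9 CPM (−0.41 ± 0.08, FDR 0.00281). The groups did not overlap for either gene in either genotype. Of 24 further fits that each left out a library or a mouse, 14 lost the WT call of Hspbp1 and 9 that of Dnajc9.

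Hspa12b and Dnajc12 were the 2 higher members in WT. Hspa12b (chromosome 2, 131127280 to 131146321), a distant relative of Hsp70 known from endothelium, had 12.3, 16.8, 10.5 and 7.82 CPM in MPP3 WT and 7.34, 6.40, 5.51 and 6.54 CPM in MPP4 WT. Its log2 fold change was 0.88 ± 0.24 in WT (FDR 0.0249) and 0.83 ± 0.24 in KO (FDR 0.0311), and the call in WT was lost without mouse WT2 (FDR 0.168). Dnajc12, a cochaperone of amino acid hydroxylases, was higher by 0.78 ± 0.25 in WT (FDR 0.0563) and by 0.70 ± 0.25 in KO (FDR 0.0787). The KO call of Hspa12b was lost in 3 of those 24 fits. The Dnajc12 call was lost in 6 for WT and in 11 for KO. Both are low genes, with a mean over all libraries of 8.09 CPM for Hspa12b and 8.16 CPM for Dnajc12.

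The other 5 members called in KO mice were Dnajc6, Dnajc10, Dnajb4, Dnajb9 and Hspa4l, all higher in MPP3. Dnajc6 had 37.1, 31.0, 35.8 and 36.2 CPM in MPP3 KO and, as above, 24.4 to 26.9 CPM in MPP4 KO (0.43 ± 0.09, FDR 0.00452). Dnajc10, a J protein of the ER lumen that reduces disulfide bonds, had 142 ± 14.3 CPM in MPP3 KO and 111 ± 3.31 CPM in MPP4 KO (0.35 ± 0.08, FDR 0.00756). Neither gene was called in WT, but the interaction given above did not pass for either. Hspa4l, an Hsp110-type gene, was higher by 0.58 ± 0.21 (FDR 0.0768), Dnajb9, an ER J protein that binds BiP, by 0.58 ± 0.20 (FDR 0.0738), and Dnajb4, a cytosolic J protein, by 0.41 ± 0.14 (FDR 0.0643). Their calls were lost in 10, 9 and 6 of the 24 fits, respectively.

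These counts depended on single libraries. In WT, 1 member was left without MPP3 WT replicate 1, MPP3 WT replicate 3 or MPP4 WT replicate 4, 2 were left without MPP3 WT replicate 2, MPP4 WT replicate 1 or both libraries of mouse WT3 or WT4, and 0 without both of mouse WT2. In KO, 5 were left without MPP3 KO replicate 2 or 3, MPP4 KO replicate 2 or both libraries of mouse KO3, and 4 without both of mouse KO2. Dnajc9, Hspbp1, Dnajc6 and Dnajc10 kept their KO calls under every alternative run.

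The mouse block added ER chaperones in both genotypes. Hspa5 was higher in MPP3 by 0.28 ± 0.07 in WT (FDR 0.0106) and by 0.45 ± 0.07 in KO (FDR 0.000366) with the block, and by 0.25 ± 0.29 (FDR 0.692) and 0.45 ± 0.29 (FDR 0.378) without it. Its paired levels were 1168, 1239, 874 and 755 CPM in MPP3 of mice WT1 to WT4, and 992, 1118, 767 and 510 CPM in MPP4 of the same mice. Each mouse was higher in MPP3, but mice differed more than the populations did. Hsp90b1 (Grp94), Hspa13 and Dnajb9 were likewise added or kept by the block in both genotypes, with FDRs of 0.00412, 0.0514 and 0.0290 in WT and 0.000576, 0.0517 and 0.000303 in KO. The ER J proteins Dnajc3 (0.27 ± 0.07, FDR 0.0133) and Dnajb11 (0.17 ± 0.07, FDR 0.0883) were added in KO, and the interaction was not called for either. Dnajb1, the main cytosolic partner of inducible Hsp70, was lower in MPP3 KO with the block (−0.15 ± 0.05, FDR 0.0452). The summed level of 8 plasma cell markers was 465 to 1554 CPM in MPP3 WT and 1372 to 1452 CPM in MPP4 WT. In KO mice it was 306 to 656 CPM in MPP3 and 1280 to 1665 CPM in MPP4. The highest of these markers were Ighm (mean 726 CPM over all libraries) and Xbp1 (216 CPM). Prdm1, Derl3 and Mzb1 had at most 4.61 CPM in any library, so the sum says little of plasma cells as such. The summed level of 8 myeloid progenitor markers was 5642 to 9553 CPM in MPP3 WT and 2295 to 3081 CPM in MPP4 WT. In KO mice it was 6755 to 16008 and 2780 to 4209 CPM. The sum of 5 mast cell markers was 159 to 361 CPM in MPP3 and 19.1 to 35.5 CPM in MPP4, and all 4 of them that were tested were higher in MPP3 in both genotypes. Nkg7 was higher in MPP3 by 0.86 ± 0.16 in WT (FDR 0.00124) and by 0.87 ± 0.16 in KO (FDR 0.000972). The sum of 7 erythroid markers was 1048 to 1558 CPM in MPP3 and 604 to 1122 CPM in MPP4. Nearly all of it was Car2, with 524 to 1474 CPM, while each of the others had at most 37.2 CPM. Of 6 tested, 2 were higher in MPP3 of WT and 3 in MPP3 of KO. The sum of 7 neutrophil markers was 10.5 to 79.6 CPM in MPP3 and 1.73 to 15.7 CPM in MPP4, with 1 of 4 tested, S100a8, higher in MPP3 in both genotypes. Their part in the differences between populations was not tested.

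The spread between animals was described by the SD of log2 CPM about the 4 group means. Its median was 0.20 over the 58 genes and 0.21 over all genes. Single members differed widely. The steadiest were Dnajc5 (0.07), Dnajc9 (0.08) and Dnajc7 (0.08), a cochaperone of both Hsp70 and Hsp90. The most variable were Hspa1a (2.48), Hspa1b (1.80), Hspa2 (0.58), Hsph1 (0.56) and Dnajc25 (0.50). Among the 200 genes of nearest mean level, the SDs of Hspa1a, Hspa1b and Hsph1 were above 100% of the others, that of Hspa5 (0.48) above 98.0% and that of Dnajb1 (0.24) above 96.0%.

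Hspa1a (chromosome 17, 34969190 to 34972156) separated 2 mice from the other 6. Mouse WT4 had 64 counts in MPP3 and 49 in MPP4, and mouse KO2 had 40 and 75. The other 12 libraries had 604 to 2868 counts. In CPM these were 1.62 and 1.15 for WT4, 1.33 and 2.01 for KO2, and 16.6 to 75.6 for the rest, with a ratio of 65.6 between the highest and the lowest library. Both mice are males, of different genotype, and the other 2 males were not low. WT3 had 49.5 and 59.2 CPM and KO1 had 23.2 and 36.9 CPM.

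Hspa1b (chromosome 17, 34956436 to 34959238) was lowest in the same mice, with 6 and 17 counts in WT4 and 19 and 49 in KO2. It was highest in WT1, with 13.1 CPM in MPP3 and 11.9 CPM in MPP4, where Hspa1a was not the highest. Dnajc25, an ER J protein, had another pattern. It was lowest in WT1, with 3.04 CPM in MPP3 and 2.27 CPM in MPP4, against 4.81 to 9.60 CPM in the other 14 libraries.

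**Figure D3:**
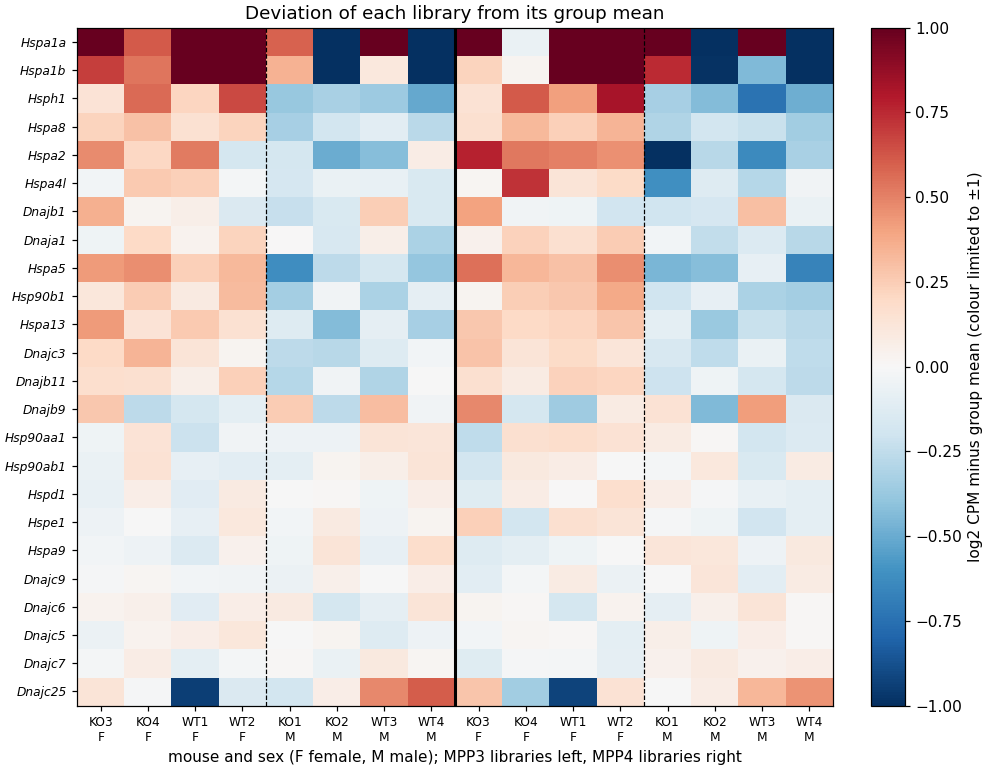
Deviation of log2 CPM from the group mean (colour, limited to ±1) for 24 genes in the 16 libraries, with mice ordered by sex on the horizontal axis. Hspa8, Hsph1, Hspa5, Hsp90b1, Hspa13, Dnajc3 and Dnajb11 are above the mean in every female and below it in every male library, and Hspa1a is far below it in mice KO2 and WT4.

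Sex was in the labels, and its comparison was added after these values had been seen. In 7 of the 58 genes (12.1%, against 1.12% of all genes) the deviation from the group mean was above 0 in all 8 female and below 0 in all 8 male libraries, or the reverse. All 7 were higher in females. These were the cytosolic Hspa8 and Hsph1 and the ER genes Hspa5, Hsp90b1, Hspa13, Dnajc3 and Dnajb11. With sex as a further term, the median SD fell from 0.20 to 0.15 for the 58 genes and from 0.21 to 0.19 for all genes.

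**Figure D4:**
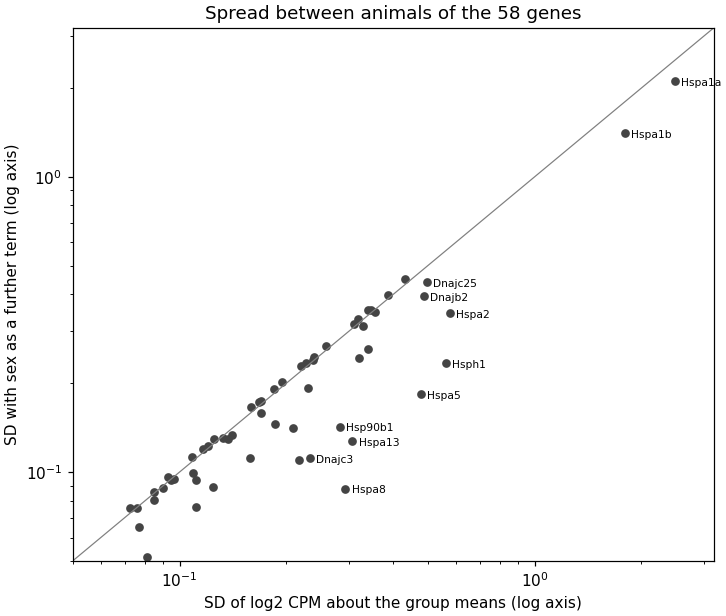
SD of log2 CPM about the group means (horizontal axis) against the same SD with sex as a further term (vertical axis) for the 58 genes, both on log axes, with the line of equality. Hspa8 moves from 0.29 to 0.09, Hspa5 from 0.48 to 0.18 and Hsph1 from 0.56 to 0.23, while Hspa1a stays above 2.

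Female and male mice were then compared within each population with genotype as a term. In MPP3, 3 of 58 members were called (5.17%, against 0.71% of all genes), all higher in females (0.465% of all genes), and in MPP4 5 of 58 were called (8.62%, against 0.448% of all genes), all higher in females (0.254% of all genes). The groups did not overlap for 8 members in MPP3 (8.49% of all genes), 7 higher and 1, Dnajc8, lower in females. In MPP4 they did not overlap for 11 (5.6%), 10 higher and 1, Dnajc7, lower in females. Both populations came from the same 8 mice, so these are not independent comparisons. The calls moved with the test and with single mice. DESeq2 called 8 members in MPP3 (7.28% of all genes) and 10 in MPP4 (3.43%). Without mouse KO4, 0 members were called in MPP3, and without WT4 1 member was. In MPP4 the count was 2 or 3 without any 1 of WT1, WT2, WT3, WT4, KO1, KO2 or KO4, and 11 without KO3. In those 11 calls and in all others between the sexes, females were higher.

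Hspa8 (chromosome 9, 40800984 to 40810087) had 3380, 3558, 4060 and 4267 CPM in MPP3 of the females WT1, WT2, KO3 and KO4, and 2834, 2518, 2769 and 3068 CPM in MPP3 of the males WT3, WT4, KO1 and KO2. In MPP4 the same females had 3642, 3904, 3918 and 4396 CPM and the same males 2644, 2427, 2852 and 3094 CPM. Every female lay above every male in both populations. Its log2 fold change between the sexes was 0.44 ± 0.05 in MPP3 (FDR 0.0172). That in MPP4 was 0.53 ± 0.06 (FDR 0.00435), and the MPP4 call held under every alternative run, while that in MPP3 was lost without mouse KO4 (FDR 0.106). The annotation places 3 small nucleolar RNA genes within the exons of Hspa8.

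Hsph1 (chromosome 5, 149614287 to 149636376), the inducible Hsp110, had 95.3, 130, 90.4 and 122 CPM in MPP3 of those females and 64.1, 57.5, 63.1 and 65.7 CPM in the males. In MPP4 it had 106, 141, 84.8 and 117 CPM in females and 47.9, 56.8, 60.9 and 56.8 CPM in males. The sexes did not overlap, with log2 fold changes of 0.81 ± 0.12 (FDR 0.0495) and 1.01 ± 0.15 (FDR 0.0268), respectively. Hspa2, an Hsp70 best known from the testis, was higher in MPP4 of females (14.8 ± 2.34 against 6.79 ± 1.57 CPM, n = 4 each, 1.11 ± 0.20, FDR 0.0727), and in MPP3 it had 13.9 ± 3.96 and 9.51 ± 1.82 CPM.

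Hspa5 (chromosome 2, 34771970 to 34777547) had 1168, 1239, 1686 and 1734 CPM in MPP3 of the females and 874, 755, 817 and 1048 CPM in the males. In MPP4 it had 992, 1118, 1351 and 1161 CPM in females and 767, 510, 674 and 685 CPM in males. No male reached the lowest female in either population, and its log2 fold changes were 0.72 ± 0.09 (FDR 0.0252) and 0.80 ± 0.11 (FDR 0.0236). Hsp90b1 was higher in MPP4 of females (403 ± 28.6 against 294 ± 49.1 CPM, 0.47 ± 0.09, FDR 0.0980). In MPP3 it had 499 ± 66.4 and 381 ± 65.3 CPM (0.39 ± 0.09, FDR 0.115). The 3 genes with an ER stress element printed above, Hspa5, Hsp90b1 and Dnajc3, were among the 7 that separated the sexes, and so were Hspa13 and Dnajb11. The promoter of Dnajb11 held no such element, and that of Hspa13 was not searched.

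Among single mice, Hspa5 lost its MPP3 call without WT4 or KO4 and its MPP4 call without WT2 or KO1. Hsph1 lost its MPP3 call without WT2, WT3, WT4, KO1 or KO4 and its MPP4 call without WT3, WT4 or KO4. The MPP4 calls of Hspa2 and Hsp90b1 were each lost on leaving out any single mouse but KO3. In a comparison added after the values were seen, without both WT4 and KO2, Hspa8 was the 1 member called in MPP3 (FDR 0.0964) and in MPP4 (FDR 0.0572). Over all alternatives the log2 fold change in MPP4 was 0.67 to 0.95 for Hspa5, 0.87 to 1.18 for Hsph1 and 0.49 to 0.57 for Hspa8. Hspa1a was not called between the sexes (1.56 ± 0.92 in MPP3, FDR 0.422, and 0.92 ± 0.95 in MPP4, FDR 0.743). Without 1 library the difference ranged from 1.06 (without KO3) to 2.94 (without WT3) in MPP3 and from 0.33 (without KO3) to 2.35 (without WT3) in MPP4. Its difference in MPP4 was −0.04 without mice WT4 and KO2.

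Age moved with sex in part, since the youngest mice were the males KO1 and KO2. With age as a term, 3 of 58 members stayed called in MPP4, Hspa5 had an FDR of 0.160 there and Hspa2 one of 0.272. Summed plasma cell markers, of which Ighm and Xbp1 had the highest mean levels, were 501 to 1554 CPM in MPP3 of females. In MPP3 of males they were 306 to 567 CPM. In MPP4 they were 1439 to 1665 and 1280 to 1420 CPM, which do not overlap. The sum of 5 T and NK cell markers, nearly all of it Nkg7, did not overlap in MPP4 either, with 227 to 271 CPM in females and 311 to 414 CPM in males, and Nkg7 was lower in females there (−0.47 ± 0.09, FDR 0.0727). In MPP3 the mast cell gene Cma1 (FDR 0.0715) and the erythroid gene Car1 (FDR 0.0855) were higher in females. Myeloid progenitor markers were 7467 to 16008 and 5642 to 12427 CPM in MPP3, and 2323 to 4209 and 2295 to 3794 CPM in MPP4. The part of these in the sex differences was not tested.

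By role, the 11 cytosolic Hsp70, Hsp110 and Hsp90 members held 2 calls in MPP3 (0.71% of all genes) and 3 in MPP4 (0.448%), with median log2 fold changes of 0.24 and 0.53 between the sexes. The 13 ER members held 1 and 2 calls, with medians of 0.27 and 0.25. Of the 7 type A and B J proteins of the cytosol, such as Dnaja1 and Dnajb1, 0 were called by edgeR, with 0 and 2 at an unadjusted p under 0.05 and medians of 0.03 and 0.07. Over all genes, 16.4% in MPP3 and 12.7% in MPP4 had such a p. Of the 6 J proteins of nucleus and ribosome, such as Dnajc9, 0 were called, with medians of −0.11 and −0.07. At an unadjusted p under 0.05 there were 2 in MPP3, both lower in females. In MPP4 there was 1, Dnajc1, which was higher in females and is also counted among the ER members. Over all genes the median was 0.01 in both populations.

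Other genes of the same pathways were read from lists. Of 20 ER stress genes that are no members, 5 were called higher in females in MPP3 (0.465% of all genes) and 4 in MPP4 (0.254%), and 0 lower, with a median log2 fold change of 0.31 and 0.22. Among them were Creld2 (0.83 ± 0.11 in MPP3 and 0.67 ± 0.13 in MPP4), Manf (0.58 ± 0.08 and 0.54 ± 0.08) and the transcription factor Xbp1 (0.62 ± 0.10 and 0.69 ± 0.11). Of 27 cochaperone and heat shock factor genes, 0 were called between the sexes by edgeR, with 7 at an unadjusted p under 0.05 in MPP3 and 5 in MPP4 (16.4% and 12.7% of all genes). Hsf1 itself was not called, with 0.33 ± 0.07 in MPP3 (FDR 0.115), and in MPP4 with 0.33 ± 0.09 (FDR 0.219). Of the 8 subunits of the cytosolic chaperonin TRiC, 0 were called, with medians of −0.06 and −0.02. Of 8 immediate early genes, such as Jun and Egr1, 0 were called, with medians of −0.31 and −0.34 and SEs of 0.51 or more for the 4 named by smallest p.

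Between KO and WT, 0 genes of these 4 lists were called by edgeR. The ER stress list had medians of 0.17 in MPP3 and 0.13 in MPP4, with 5 and 3 of 20 genes at an unadjusted p under 0.05 (10.5% and 12.8% of all genes), all with higher values in the libraries labelled KO. Of 8 myeloid progenitor markers, 8 were higher in KO in MPP3 (median 0.84) and 7 in MPP4 (0.42), with 6 and 3 at such a p. Of 6 plasma cell markers tested, 4 in MPP3 and 1 in MPP4 were lower in KO at such a p, and 0 higher. The part of these cells in the ER stress values was not tested. All 8 immediate early genes had a log2 fold change below 0 in both populations, with medians of −0.52 and −0.71, and 0 of them had an unadjusted p under 0.05. Between the populations, 4 of 20 ER stress genes were higher in MPP3 of WT mice (6.8% of all genes) and 5 of 20 in MPP3 of KO mice (8.71%). The lectin chaperone Calr was higher by 0.64 ± 0.09 (FDR 0.000171) and 0.73 ± 0.09 (FDR 3.92e-05), and the disulfide isomerase Pdia3 by 0.21 ± 0.06 (FDR 0.0459) and 0.34 ± 0.06 (FDR 0.00141). Of the cochaperones, Hscb, a mitochondrial J protein of iron-sulfur cluster assembly whose symbol the rule does not take, was higher by 0.60 ± 0.08 in WT (FDR 8.23e-05) and by 0.48 ± 0.08 in KO (FDR 0.000618). The phosphatase Ppp5c, an Hsp90 cochaperone, was lower in MPP3 of WT (−0.34 ± 0.08, FDR 0.0074). In KO mice 0 of the 27 were called lower, and the interaction of Ppp5c was not called (0.21 ± 0.11, FDR 1).

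It was tested over the 8 mice, by two-sided exact permutation of the pairing, whether a mouse high in MPP3 is also high in MPP4. The genes were the 11 members listed as stress-inducible, a list that also holds the constitutive Hspa8. Pearson's r passed a Benjamini-Hochberg adjusted p of 0.05 for 7 of 11 genes, among them Hspa8, Hsph1 and Hspa1a. The test was not run on all genes. As a description, r of the deviations in MPP3 and MPP4 was above 0.5 for 41.1% of all genes. The share among all heat shock protein and DnaJ members was 51.7%. For Hspa8 and Hsph1 the sexes formed separate ranges of 4 mice in both populations, within which the relation was not tested, and for Hspa1a 2 mice stood apart, so no r over all mice is given for these 3. For Hspa1b r was 0.968 (exact p = 0.000471, adjusted 0.00191) and Spearman's rho 0.857 (exact p = 0.0107, adjusted 0.0294). This r rests in part on WT4, lowest with 0.152 and 0.400 CPM, and WT1, highest with 13.1 and 11.9 CPM in MPP3 and MPP4. The r without these 2 mice is given below. For Dnajb1 r was 0.938 (exact p = 0.000694, adjusted 0.00191) and rho 0.905 (exact p = 0.00456, adjusted 0.0251). In Dnajb1 the mice KO3 and WT3 were highest, with 285 and 279 CPM in MPP3 and 325 and 303 CPM in MPP4, against 190 to 244 CPM in the other 12 libraries. For Dnaja1 r was 0.883 and rho 0.810 (exact p = 0.00474 and 0.0218, adjusted 0.00869 and 0.0400), and for Hspa4l 0.760 and 0.643 (exact p = 0.0262 and 0.0962, adjusted 0.0412 and 0.151). The sexes did not overlap in MPP3 for Hspa1b and Hspa4l or in MPP4 for Dnaja1, and centred on the mean of each sex, as a description, r was 0.949 for Hspa1b, 0.486 for Hspa4l and 0.917 for Dnaja1.

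With fewer mice the adjusted threshold was not passed. Without the 2 mice farthest from the median MPP3 level, 0 of 11 genes passed the adjusted threshold, although 6 mice allow an exact p down to 0.00139. Over the 6 mice other than WT4 and KO2, r was 0.828 for Hspa1a (exact p = 0.0139, adjusted 0.0764) and rho 0.771 (exact p = 0.103, adjusted 0.227). Without 2 mice r was 0.869 for Hspa1b (exact p = 0.0569), 0.790 for Dnajb1 (0.0625 by the same exact test), 0.737 for Dnaja1 (0.126) and 0.526 for Hspa4l (0.318). Centred on the mean of each sex, as a description, r was 0.852 for Hspa8 and 0.760 for Hsph1. Hsp90aa1 did not follow the mouse (r = 0.044, rho = −0.119, exact p = 0.928 and 0.793). Over all 58 genes the median r of the deviations in MPP3 and MPP4 was 0.51, and over all genes 0.40.

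**Figure D5:**
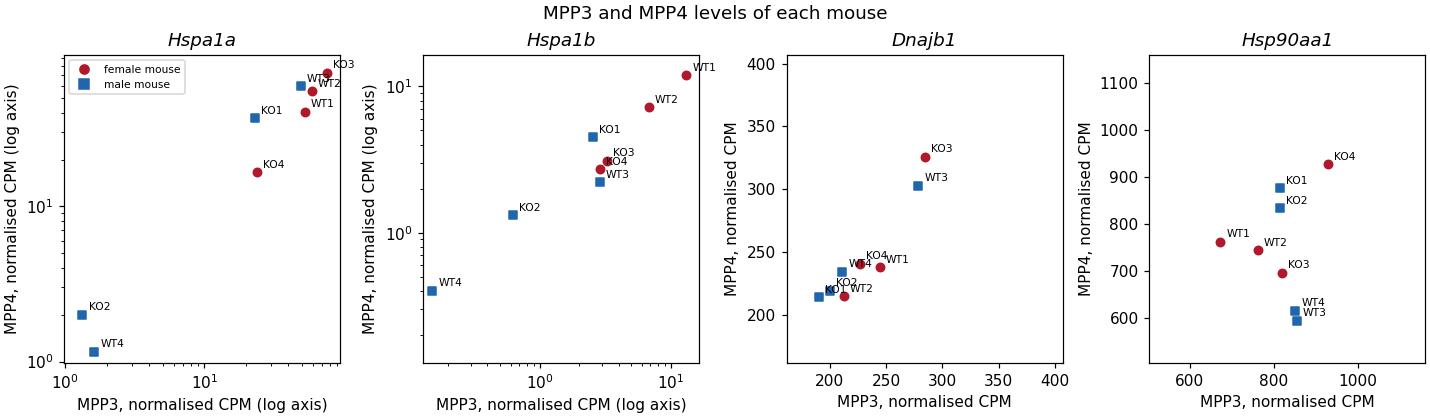
MPP3 level (horizontal axes) against MPP4 level (vertical axes) in normalised CPM for each mouse, with log axes for Hspa1a and Hspa1b. Circles are females and squares males. WT4 and KO2 lie apart from the other 6 mice for Hspa1a, KO3 and WT3 are highest for Dnajb1, and the mice keep no common order for Hsp90aa1.

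Across the 16 libraries the deviations of Hspa8 followed those of Hspa5 (r = 0.951), Hsph1 (r = 0.937) and Hsp90b1 (r = 0.909), given as a description, since libraries of a mouse are not independent. Those of Hspa1a followed Hspa1b (0.838) and Hspa13 (0.783). Outside the 58, deviations were compared with the mean of the 11 members listed as stress-inducible, in which Hspa1a and Hspa1b weigh most. The genes most like that mean were Srsf10 (r = 0.913), the gene ENSMUSG00000095041.7 (0.901), which has no symbol in the annotation used, Trrap (0.886), Srsf7 (0.884) and Gm6483 (0.884), over 16 libraries.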

How the data were processed

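Gene counts and normalised counts of 16 libraries from 8 mice were used. Per the paper's methods, libraries from RNA of sorted cells were made with the NEBNext SingleCell/Low Input kit, read as pairs and aligned to mm10 with STAR 2.7.3a, and the authors deposited the counts per gene from featureCounts 2.0.0. The authors also deposited a signal table, the counts divided by DESeq2 size factors, limited to 11831 genes whose mean exceeded 100 counts in at least 1 group. For the RNA-seq counts, annotation release and strand use are not given in the sources used here, so overlapping genes on opposite strands may share reads. Symbols and coordinates came from GENCODE M21 (GRCm38), which named 47224 of 47937 identifiers, and Hspa14 was matched by its values.

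Groups, sex and age came from the labels, and libraries of a group are from separate mice. The members and gene lists were chosen with earlier results of these data known. Counts of the 11831 genes were tested with edgeR 4.0.16 (quasi-likelihood, TMM, R 4.3.3) in 1 fit of 16 libraries with 1 mean per group and no covariate. P-values were adjusted by Benjamini-Hochberg over all genes (FDR), and 0.1 was the threshold. Sex was tested within a population with genotype as a term, a comparison added after the values were seen. DESeq2 1.42.0 and other alternatives are given in the closing section. Log2 CPM used a prior count of 2. Correlations over mice and their exact permutation used NumPy 2.4.6, and those of deviations over libraries used R. The scripts were tested on simulated data.

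MPP3 and MPP4 libraries with the same number are from the same mouse, and their deviations from the group means correlated with r = 0.274 to 0.528, each best with its own number, so the mouse was used as a block in a further fit. Named members were the listed stress-inducible and ER genes with Hsp90ab1, Hspa9, Hspa4, Dnajc6 and Dnajc9, those called between genotypes or populations, the 3 of smallest p in each of these comparisons, the 5 of largest and 3 of smallest SD, and the 3 highest and 3 lowest per length. Hspa2 in the sex comparison, Dnajc21 and members named in the closing section by a library apart were named after their values were seen. Depth was 24823708 to 48703193 counts per library.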

Additional observations from a re-analysis of the deposited data

Results flagged for a closer look

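In 7 of 152 groups of 4 libraries (4.61%), each a named gene in a group, 1 library stood apart from the other 3 by Dixon's criterion at 95%, and chance alone gives about 1 in 20 such groups. Hspa1a was at 1.62 CPM in MPP3 WT replicate 4, with the other 3 at 49.5 to 59.3 CPM. Dnajb12 was at 21.4 CPM in MPP4 WT replicate 1, with the others at 10.6 to 12.5 CPM. Dnajb4 was at 29.9 CPM in MPP4 WT replicate 3, with the others at 21.5 to 21.9 CPM. Dnajc10 was at 148 CPM in MPP3 WT replicate 4, with the others at 132 to 134 CPM. Dnajc14 was at 51.8 CPM in MPP4 KO replicate 1, with the others at 68.8 to 70.8 CPM. Hsp90aa1 was at 927 CPM in MPP3 KO replicate 4, with the others at 813 to 818 CPM. Hspa9, the mitochondrial Hsp70, was at 507 CPM in MPP3 KO replicate 2, with the others at 448 to 456 CPM.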

How the results depend on the processing

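Of the fold changes of named members under the alternatives, 1382 kept direction and side of the threshold, 154 lost the call, 65 gained one and 2 reversed. The reversed values were those of Dnajb1 between populations in KO, 0.0055 without MPP4 KO replicate 3 (range without 1 library −0.28 to 0.0055), and of Hspa1a between the sexes in MPP4, −0.036 without mice WT4 and KO2. The r of Hsp90aa1 and Dnajb4 over mice became −0.569 and −0.603 without the 2 outermost mice, and the number of genes with an adjusted p under 0.05 went from 7 to 0. The members called in KO against WT in MPP4 were 1 (Dnajc6) with DESeq2, with sex as a term and with the replicate block. WT and KO libraries with the same number are different mice, whose deviations correlated with r of −0.44 to 0.0606, so they share only a number, and that block gave 0 members in MPP3. Between the populations, pairing libraries by mouse as a replicate block gave 10 members in WT and 15 in KO. In WT the count was 1 with all genes of at least 1 count, 7 with sex as a term and 1 without mice WT4 and KO2. In KO it was 5 with all genes and 4 without those mice. Between the sexes in MPP3 it was 8 with DESeq2, 6 with all genes and 1 without those mice. In MPP4 it was 10 with DESeq2, 9 with all genes, 3 with the filterByExpr limit, 3 with age as a term and 1 without those mice. Leaving out 1 library or mouse gave 0 to 1 called members in KO against WT in MPP4, 0 to 5 between populations in WT, 4 to 9 in KO, 0 to 3 between the sexes in MPP3 and 2 to 11 in MPP4. It gave 0 in KO against WT in MPP3 and for the interaction. The median SD was 0.192 to 0.207 without 1 library and 0.152 with sex as a term. The cause of these changes was not tested. Genes near 1 CPM, such as Hspa1b in mouse WT4, rest on few counts.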
